A study of Mus musculus with 28 samples.

Results

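The small leucine-rich proteoglycans (SLRPs) decorin (Dcn), biglycan (Bgn), lumican (Lum), fibromodulin (Fmod), osteoglycin (Ogn), osteomodulin (Omd), PRELP (Prelp), asporin (Aspn) and podocan (Podn) were followed in the mouse left ventricle after myocardial infarction (MI). They were taken from the gene-level count tables by exact gene name, which gave 9 of 45318 gene rows. All 9 members passed the filter on low counts at both follow-ups, so none was left out. RNA came from the left ventricular wall of male Hsd:ICR(CD-1) mice, an outbred stock, and 1 mouse gave 1 library. The infarct model was ligation of the left anterior descending coronary artery, and sham-operated mice of the same age served as controls. The wall was sampled in the remote zone according to the labels.

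There were 8 groups. Mice operated at 1 day of age and collected 3 days later, at 4 days of age, formed 1d-SHAM + 3 and 1d-MI + 3. Mice operated at 7 days of age and collected 3 days later, at 10 days of age, formed 7d-SHAM + 3 and 7d-MI + 3. These groups held 4 mice each. The same operations with a follow-up of 21 days gave 1d-SHAM + 21 and 1d-MI + 21, collected at 22 days of age, and 7d-SHAM + 21 and 7d-MI + 21, collected at 28 days of age, with 3 mice each. The question of the design is how the remote myocardium answers infarction before and after the neonatal mouse heart loses its regenerative capacity. The 2 follow-ups were prepared with different library kits and sequencers, so every test was made within a follow-up.

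SLRPs are secreted proteins built around a core of leucine-rich repeats, most of which carry chondroitin, dermatan or keratan sulfate chains. They bind collagen fibrils and govern fibril diameter and spacing, and soluble forms bind growth factors and receptors of innate immunity. In the heart they are made mainly by fibroblasts and valve interstitial cells. By sequence the members fall into class I (Dcn, Bgn and Aspn), class II (Lum, Fmod, Prelp and Omd), class III (Ogn) and class V (Podn).

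Library totals were 33077962 to 51942648 counts at 3 days and 40514177 to 168550985 counts at 21 days. At 21 days ribosomal RNA loci took between 0.467% and 69.8% of a library, with a wide spread inside every group, and the biological coefficient of variation over all genes was 0.567, against 0.331 at 3 days. Among low counts of 1 to 20, the share of even values was 57.5% to 61.3% in all 4 1d-MI + 3 libraries and in replicates 1 and 2 of 1d-SHAM + 3, and 74.7% to 79.0% in the other 10 libraries of that follow-up. Those 2 sham libraries carry the animal-name prefix 1078 and the other 2 the prefix 1103. No prefix was shared between groups, so prefix and group cannot be told apart, and comparisons that use 1d-SHAM + 3 are given with each prefix alone where that changes the call of a member. The 7 ventricular cardiomyocyte markers summed to 17470 to 61599 CPM (counts scaled to a common library size) at 3 days and 14358 to 30239 CPM at 21 days. None was at 0 in any group, so cardiomyocyte markers were present. These sums do not show which part of the heart was taken.

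The members sit on 5 chromosomes, and 7 of the 9 lie in 3 clusters of family genes (coordinates in GRCm38). Prelp (ENSMUSG00000041577, chr1:133910304-133921414, minus strand) and Fmod (ENSMUSG00000041559, chr1:134037254-134048277, plus strand) are separated by 115840 bases. Dcn (ENSMUSG00000019929, chr10:97479609-97518143, plus strand) and Lum (ENSMUSG00000036446, chr10:97565128-97572703, plus strand) are separated by 46985 bases. Aspn (ENSMUSG00000021388, chr13:49544443-49567565), Omd (ENSMUSG00000048368, chr13:49582462-49592822) and Ogn (ENSMUSG00000021390, chr13:49608046-49624501) follow one another on the plus strand with gaps of 14897 and 15224 bases. No protein-coding gene starts and ends in any of these gaps. Podn (ENSMUSG00000028600, chr4:108014791-108096445, minus strand) and Bgn (ENSMUSG00000031375, chrX:73483602-73495933, plus strand) stand alone.

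Some members overlap another gene, and the strand setting of the counting is not given in the sources used here. The antisense gene Gm15851 shares 350 of the 3615 exonic bases of Prelp. It had 0 to 15 counts in 7d-SHAM + 3 and 29 to 71 in 7d-MI + 3, where Prelp had 152 to 204 and 456 to 992. In 7d-SHAM + 21 and 7d-MI + 21 it had 64 to 520 and 455 to 2192 counts. Prelp had 456 to 2977 and 2984 to 13028 there. The part of Gm15851 in the value of Prelp was not tested. Aspn, Omd and Ogn lie inside Cenpp on the opposite strand and share 7, 0 and 0 exonic bases with it. Cenpp, a centromere protein gene, had 124 to 1629 counts at 3 days against 33 to 125 for Omd, so introns of Cenpp can bear on the value of Omd in particular. Podn shares its span, and 0 exonic bases, with Scp2 on the same strand. Scp2 had 3199 to 3872 counts in 7d-SHAM + 3 and 2645 to 3335 in 7d-MI + 3, where Podn had 2 to 14 and 30 to 113. Introns of Scp2 can thus bear on the value of Podn too, and this was not tested.

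Stretches of 120 bases before the RefSeq transcription start (GRCm38.p6) are shown for the 4 members that were higher in 7d-MI + 3 than in their shams and for 2 that were not, printed 5′ to 3′ on the strand of the gene with motif matches in capitals. For Podn, which has 2 RefSeq starts, the upstream one is shown.
Bgn, chrX:73483481-73483600, plus strand: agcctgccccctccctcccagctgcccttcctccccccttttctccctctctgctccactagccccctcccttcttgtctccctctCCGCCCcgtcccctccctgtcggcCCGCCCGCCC
Podn, chr4:108031955-108032074, minus strand: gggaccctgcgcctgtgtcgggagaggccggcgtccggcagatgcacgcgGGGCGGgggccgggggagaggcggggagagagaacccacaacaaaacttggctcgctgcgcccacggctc
Prelp, chr1:133921402-133921521, minus strand: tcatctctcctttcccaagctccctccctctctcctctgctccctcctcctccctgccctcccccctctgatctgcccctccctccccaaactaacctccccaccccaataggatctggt
Fmod, chr1:134037134-134037253, plus strand: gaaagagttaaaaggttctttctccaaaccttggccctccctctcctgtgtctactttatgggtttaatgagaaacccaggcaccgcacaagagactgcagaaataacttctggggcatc
Aspn, chr13:49544323-49544442, plus strand: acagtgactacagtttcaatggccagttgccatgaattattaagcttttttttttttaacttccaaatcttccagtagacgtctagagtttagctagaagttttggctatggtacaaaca
Ogn, chr13:49607895-49608014, plus strand: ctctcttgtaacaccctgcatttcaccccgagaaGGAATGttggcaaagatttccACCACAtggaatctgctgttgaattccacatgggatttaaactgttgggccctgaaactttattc

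The stretches differ mainly in base composition. GC content over the 120 bases was 73.3% for Podn, 71.7% for Bgn and 61.7% for Prelp, against 46.7% for Fmod, 44.2% for Ogn, 35.0% for Aspn and 34.2% for Omd. The median over all 32851 RefSeq promoters was 54.2%, with quartiles at 45.8% and 65.0%. Short motifs, 6 in number, were searched on both strands over 250 bases before the start. The GC box GGGCGG matched at 3 places in Bgn, of which 2 overlap, and is present in 32.7% of all promoters. In Podn it matched at 2 places, of which 1 lies outside the stretch shown. The TEAD motif CATTCC and the RUNX motif TGTGGT each matched at 1 place in Ogn, on the strand opposite to the one printed, and are found in 12.6% and 14.0% of all promoters. TATAAA matched at 2 places each in Aspn and Ogn, outside the stretches shown, and is found in 12.4% of promoters. The AP-1 motif TGACTCA and the SMAD motif CAGACA, found in 4.46% and 17.1% of promoters, had no match in the 7 members with a window. A match is a string of letters in this window and nothing more.

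Per kilobase of gene length, levels of the members spanned orders of magnitude at 3 days. Levels between genes are given as RPKM on the lengths of the authors, and each value is a group mean. In 7d-SHAM + 3 Dcn was highest at 552 RPKM, followed by Aspn at 127, Ogn at 103 and Lum at 50.5. Bgn stood at 6.98, Omd at 1.43, Prelp at 1.42, Fmod at 0.136 and Podn at 0.0517 RPKM. The libraries of Dcn did not overlap those of the next member in any 3-day group, while Aspn and Ogn overlapped in all but 7d-MI + 3. In 7d-MI + 3 Bgn reached 53.6 RPKM and came next after Ogn at 101, its libraries overlapping those of Lum at 32.8. Below it came Lum, then Prelp at 3.89, Omd at 1.44, Fmod at 1.28 and Podn at 0.321, and Omd overlapped Fmod. The place of Dcn depends on its length: with 5838 exonic bases from GENCODE in place of the 2084 of the authors, Aspn led Dcn in 1d-SHAM + 3 (156 against 122), 1d-MI + 3 (132 against 76.1) and 7d-MI + 3 (144 against 112).

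At 21 days Dcn was again highest in all 4 groups, with group means of 151 to 361 RPKM and no overlap with the next member, and it led with the longer length too. In 7d-MI + 21 Dcn stood at 361, Lum at 83.0, Bgn at 79.9, Ogn at 43.5, Aspn at 34.2, Prelp at 17.7, Fmod at 11.3, Podn at 4.01 and Omd at 1.93 RPKM. Lum and Bgn overlapped, as did Ogn and Aspn, Aspn and Prelp, and Prelp and Fmod. The members summed to 634 RPKM in 1d-SHAM + 3 and 466 in 1d-MI + 3, of which Dcn made up 54.3% and 45.9% and Bgn 0.596% and 2.32%. For 7d-SHAM + 3 and 7d-MI + 3 the sums were 843 and 652 RPKM, with 65.5% and 47.9% from Dcn and 0.837% and 8.24% from Bgn. At 21 days the sums were 323 and 277 RPKM in the 1d groups, sham before MI, and 318 and 637 RPKM in the 7d groups, with 50.1% to 56.6% from Dcn and 8.81% to 12.7% from Bgn. Levels at 3 and 21 days come from different kits and were not tested against each other.

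**Figure D1:**
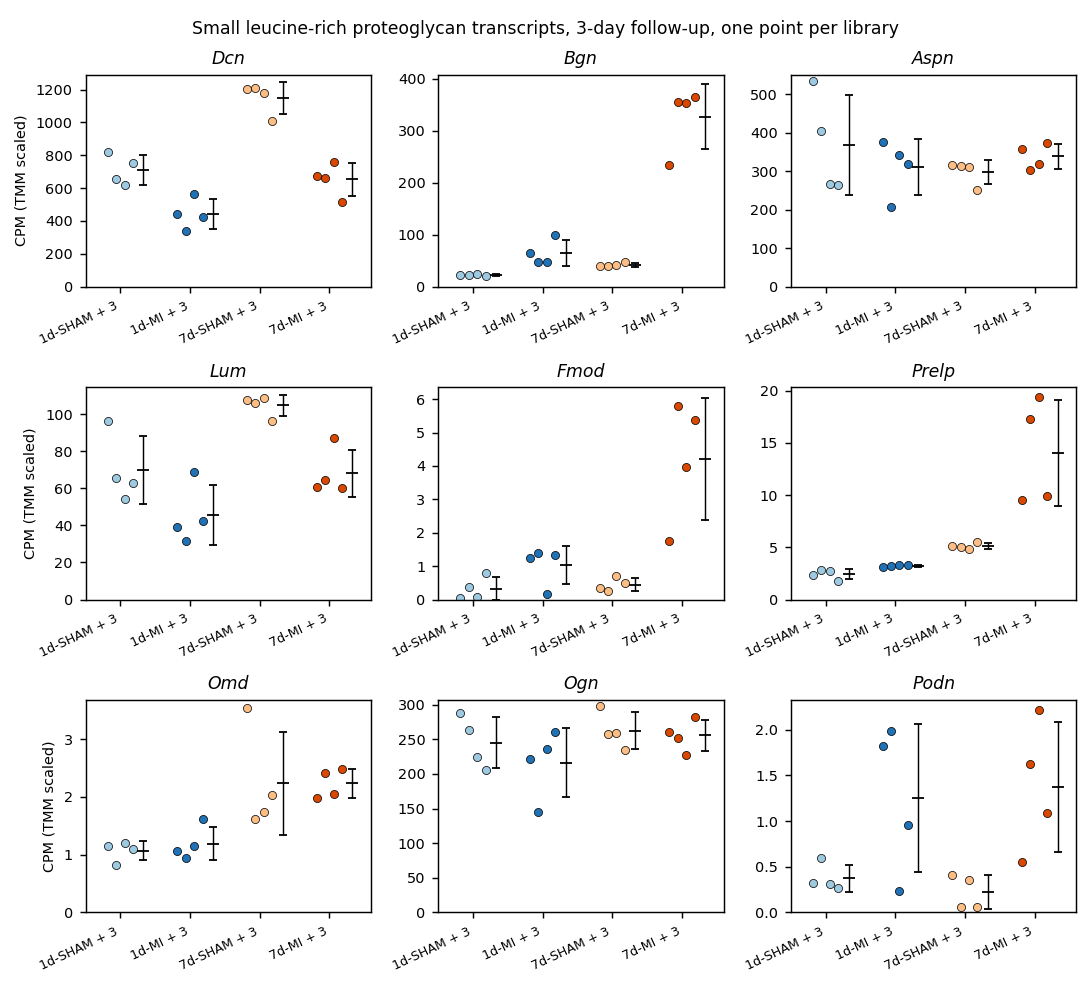
Level of each member in the 3-day libraries, in CPM on an axis of its own that starts at 0, with 1 point per library and the mean ± SD of 4 libraries beside it. Bgn lies between 233 and 365 CPM in 7d-MI + 3 and below 99 CPM in every other library, while Dcn is lower in both MI groups than in their shams.

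The infarct at 7 days of age was followed 3 days later by opposite shifts within the family. Bgn, Fmod, Podn and Prelp rose in 7d-MI + 3 against 7d-SHAM + 3, Dcn and Lum fell, and Aspn, Ogn and Omd did not pass the test. That is 4 members higher, where 19.8% of the 20345 genes tested were higher, and 2 lower, where 14.2% were lower, by the quasi-likelihood test of edgeR at a Benjamini-Hochberg adjusted p under 0.05. The median log2 fold change of the 9 members was 0.18, beside 0.08 over all genes tested. In bulk tissue, fewer cells of a type and less RNA per cell cannot be told apart, and p-values here measure the spread between mice of 1 group. Overlap between libraries is given for each member as a description. For the comparisons at 3 days the share of all genes without overlap is not given beside it.

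Among class I members, Bgn, which binds collagen and in soluble form engages toll-like receptors, had the smallest p. Its levels were 40.4, 40.1, 41.4 and 48.3 CPM in 7d-SHAM + 3 and 233, 355, 354 and 365 CPM in 7d-MI + 3. Every MI library lay above every sham library. The log2 fold change was 2.94 ± 0.21 (SE, n = 4 per group), a 7.68-fold rise, with an adjusted p of 1.05e-08 by edgeR's quasi-likelihood test. Dcn, which limits the lateral growth of collagen fibrils and binds TGF-β, went the other way. It stood at 1201, 1213, 1180.4 and 1008 CPM in 7d-SHAM + 3 and at 675, 664, 758 and 517 CPM in 7d-MI + 3. The groups did not overlap, and the log2 fold change was -0.82 ± 0.16 (edgeR adjusted p = 0.000446). Aspn, which carries an aspartate-rich stretch in place of a glycosaminoglycan site, stood at 316, 313, 310 and 252 CPM in the shams and 357, 304, 319 and 373 CPM after MI. These overlapped, with a log2 fold change of 0.18 ± 0.20 (edgeR adjusted p = 0.539).

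Within class II, the members did not move as a group. Fmod, which shares its collagen binding region with Lum, had 10, 8, 28 and 18 reads in 7d-SHAM + 3 and 94, 300, 202 and 248 reads in 7d-MI + 3, or 0.340, 0.248, 0.717 and 0.489 CPM against 1.75, 5.80, 3.96 and 5.38 CPM. All MI libraries were above the shams, and the log2 fold change was 3.21 ± 0.69 (edgeR adjusted p = 0.00153), on low counts. Prelp, a basic protein that links collagen to heparan sulfate of basement membranes, stood at 5.17, 5.01, 4.87 and 5.54 CPM in the shams and 9.58, 17.3, 19.4 and 9.89 CPM after MI. No libraries overlapped, and the log2 fold change was 1.45 ± 0.21 (edgeR adjusted p = 2.44e-05). Lum, a keratan sulfate proteoglycan that controls collagen fibril size, was at 108, 106, 109 and 96.5 CPM in the shams and 60.8, 64.6, 87.1 and 60.0 CPM after MI. Its groups did not overlap, and the log2 fold change was -0.62 ± 0.20 (edgeR adjusted p = 0.0226). Omd, best known from mineralized tissue, had 52 to 104 reads per library in the shams and 105 to 125 after MI, or 3.53, 1.61, 1.74 and 2.04 against 1.99, 2.42, 2.06 and 2.47 CPM. The groups overlapped at a log2 fold change of 0.01 ± 0.28.

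Ogn, the class III member, stood at 299, 258, 259 and 235 CPM in the shams and at 261, 252, 228 and 282 CPM after MI, a log2 fold change of -0.04 ± 0.16 (edgeR adjusted p = 0.907). The groups overlapped. Podn, the class V member, had 2 to 14 reads per library in the shams and 30 to 113 after MI, or 0.408, 0.0619, 0.359 and 0.0543 CPM against 0.557, 1.62, 2.21 and 1.08 CPM. All MI libraries were higher, and the log2 fold change was 2.63 ± 0.68 (edgeR adjusted p = 0.00497). Calls for Bgn, Fmod, Prelp and Dcn held in all 27 alternative settings. Lum passed or missed the threshold by a single library: the adjusted p was 0.0612, 0.0603 and 0.0641 without replicates 1, 2 and 3 of 7d-SHAM + 3 and 0.0789, 0.0716 and 0.0843 without replicates 1, 2 and 4 of 7d-MI + 3, with log2 fold changes of -0.61 to -0.55. With the animal-name prefix as a random block in limma-voom, the adjusted p was 0.0674 for Lum and 0.126 for Podn.

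**Figure D2:**
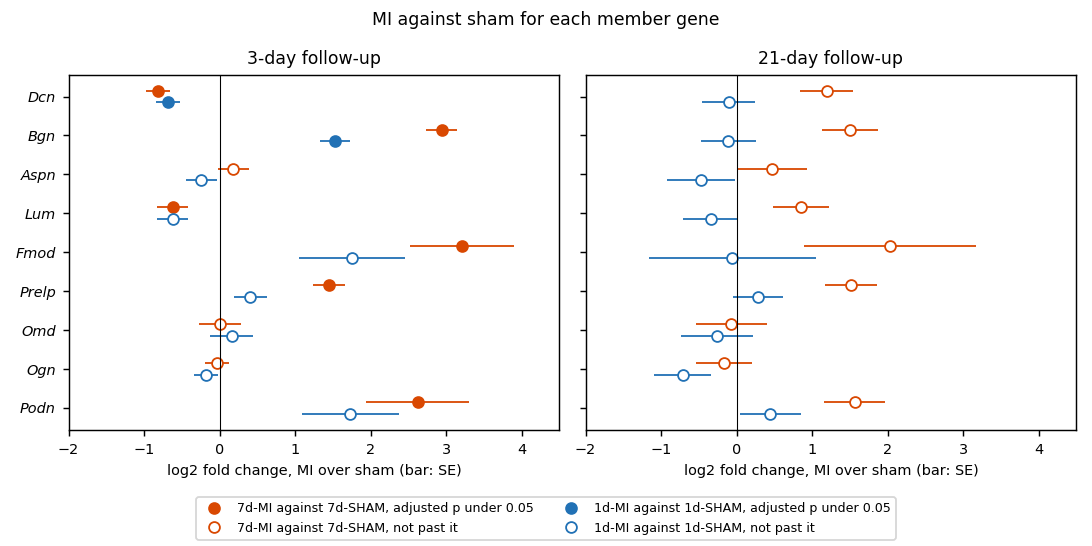
Log2 fold change of MI over sham for each member, with 1 SE on either side, for mice operated at 1 day and at 7 days, at 3 and 21 days. Filled points passed an adjusted p under 0.05 by edgeR's quasi-likelihood test: at 3 days 6 members after the operation at 7 days and 2 after the operation at 1 day, and none at 21 days.

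The mice operated at 1 day of age showed fewer calls 3 days later. Bgn rose and Dcn fell in 1d-MI + 3 against 1d-SHAM + 3, and the other 7 members did not pass the test. That is 1 member higher and 1 lower, where 4.1% of genes tested were higher and 4.36% were lower, and the median of the members was 0.16 beside 0.06 over all genes. Bgn stood at 21.6, 22.5, 24.4 and 21.3 CPM in the shams and at 65.1, 47.1, 48.1 and 98.7 CPM after MI. No libraries overlapped, and the log2 fold change was 1.53 ± 0.20, a 2.88-fold rise (edgeR adjusted p = 0.000281). Dcn stood at 820, 655, 619.9 and 754 CPM in the shams and at 446, 341, 565 and 426 CPM after MI. Again the groups did not overlap, with a log2 fold change of -0.68 ± 0.16 (edgeR adjusted p = 0.0139).

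Of the members that moved in the older mice, Prelp stood at 2.31, 2.83, 2.75 and 1.80 CPM in 1d-SHAM + 3 and at 3.14, 3.17, 3.33 and 3.27 CPM in 1d-MI + 3. The libraries did not overlap, but the log2 fold change of 0.41 ± 0.22 missed the threshold (edgeR adjusted p = 0.221). Lum was at 96.1, 65.9, 54.3 and 62.9 CPM in the shams and 39.4, 31.6, 68.7 and 42.2 CPM after MI, with a log2 fold change of -0.62 ± 0.20 (edgeR adjusted p = 0.0622). Fmod had 2, 18, 4 and 24 reads in the shams and 60, 62, 9 and 76 after MI, and its log2 fold change was 1.75 ± 0.70 (edgeR adjusted p = 0.12). Replicate 3 of 1d-MI + 3 lay inside the sham range for Lum and Fmod. It was also lowest for Podn, at 0.238 CPM beside 1.82, 1.99 and 0.955 CPM in the other MI libraries. Podn ranged from 0.266 to 0.592 CPM in the shams and had a log2 fold change of 1.73 ± 0.64 (edgeR adjusted p = 0.0931). Lum passed in DESeq2 (adjusted p = 0.0420) and in limma-voom (0.0443). Without that replicate the edgeR adjusted p was 0.0248 for Podn, 0.0324 for Fmod and 0.00436 for Lum, with log2 fold changes of 2.05, 2.10 and -0.90. In that replicate 27324 genes had a read, against 33490, 35932 and 32011 in the other MI libraries. The part of this difference in the low counts of Podn and Fmod was not tested.

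Ogn ranged from 206 to 288 CPM in 1d-SHAM + 3 and from 146 to 261 CPM in 1d-MI + 3, Aspn from 265 to 534 CPM and from 206 to 376 CPM, and Omd from 0.824 to 1.20 CPM and from 0.938 to 1.61 CPM. All 3 overlapped, with log2 fold changes of -0.18 for Ogn, -0.24 for Aspn and 0.16 for Omd. The call for Bgn held in all 27 alternative settings, including the shams of prefix 1078 alone (log2 fold change 1.54) and of prefix 1103 alone (1.51). The call for Dcn did not: its adjusted p was 0.0532 without replicate 2 of 1d-MI + 3, 0.0503 with the shams of prefix 1078 alone, 0.0822 with only these groups in the fit and 0.0613 in limma-voom with the prefix block.

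The MI effects at both ages were compared directly, as the difference of their log2 fold changes. It was positive and past the threshold for Bgn, at 1.41 ± 0.27 (edgeR adjusted p = 0.0023), and for Prelp, at 1.04 ± 0.30 (edgeR adjusted p = 0.0267). That is 2 members, where 9.01% of genes were higher. The difference for Dcn was -0.13 ± 0.22 (edgeR adjusted p = 0.756) and for Lum -0.00 ± 0.29, so a difference of the fall between ages was not detected. Fmod (1.46 ± 0.97, edgeR adjusted p = 0.358) and Podn (0.90 ± 0.91, edgeR adjusted p = 0.581) had wide errors, and Aspn, Ogn and Omd stood at 0.43, 0.14 and -0.16. The median over the members was 0.43, beside 0.03 over all genes. Bgn held in all 26 alternatives. Prelp missed the threshold without replicate 2 or 3 of 7d-SHAM + 3 (edgeR adjusted p = 0.0511 and 0.0521), without replicate 2 or 3 of 7d-MI + 3 (0.0662 and 0.0591) and with the 1d-SHAM + 3 libraries of prefix 1103 alone (0.0529). It also missed it with upper-quartile scaling (0.0870), in limma-voom (0.0964) and, most widely, in limma-voom with the prefix block (0.236). With prefix 1078 alone Aspn also passed, at 0.80 (edgeR adjusted p = 0.0437).

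Between the infarcted groups, 7d-MI + 3 had higher levels than 1d-MI + 3 for 6 members, where 19.4% of genes were higher. Bgn (log2 fold change 2.34 ± 0.20, edgeR adjusted p = 1.51e-07), Prelp (2.12 ± 0.22, 7.24e-07), Fmod (2.02 ± 0.64, 0.0173) and Omd (0.90 ± 0.28, 0.0142) did not overlap between groups. Dcn (0.56 ± 0.16, edgeR adjusted p = 0.00826) and Lum (0.58 ± 0.20, 0.0270) passed with overlapping libraries. Ogn, Podn and Aspn, at 0.24, 0.13 and 0.12, did not pass. The median was 0.58 over the members and -0.13 over all genes. This comparison shares its MI libraries with the comparisons against the shams. The share of even low counts also separates the 2 groups completely, and their part in the result cannot be told apart. Lum missed the threshold without replicate 1, 2 or 4 of 1d-MI + 3 (edgeR adjusted p = 0.0648, 0.0955 and 0.0616) or replicate 3 of 7d-MI + 3 (0.103), and with upper-quartile scaling Lum, Dcn and Omd did (0.104, 0.0631 and 0.0552). Lum did too with a mean count of at least 50 (0.0552) and with only these groups in the fit (0.0561).

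In the shams 5 members were higher at 10 than at 4 days of age, where 8.12% of genes were higher. Age, day of operation and animal-name prefix cannot be told apart in this comparison. From the library values given above, 7d-SHAM + 3 lay wholly above 1d-SHAM + 3 for Prelp (log2 fold change 1.08 ± 0.22, edgeR adjusted p = 0.00178), Bgn (0.92 ± 0.19, 0.00266), Dcn (0.69 ± 0.16, 0.00485) and Lum (0.59 ± 0.20, 0.0479). The same held for Omd, at 1.15, 0.824, 1.20 and 1.10 CPM in 1d-SHAM + 3 (1.06 ± 0.29, edgeR adjusted p = 0.0144). Podn, Fmod, Aspn and Ogn overlapped, at -0.76, 0.56, -0.30 and 0.10. The median was 0.59 over the members and -0.13 over all genes. Dcn and Bgn passed with the shams of prefix 1078 alone (0.70 and 1.00) and of prefix 1103 alone (0.74 and 0.90), and Prelp did too (1.06 and 1.17), though in limma-voom with the prefix block the adjusted p of Prelp was 0.0947.

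The calls for Omd and Lum in this sham comparison were weaker. Omd had an adjusted p of 0.0586 without replicate 2 of 1d-SHAM + 3, 0.0922 without replicate 1 of 7d-SHAM + 3, 0.153 with prefix 1103 alone and 0.156 in limma-voom with the prefix block. Lum missed the threshold in 13 of 27 alternatives, among them the leaving out of replicates 2, 3 and 4 of 1d-SHAM + 3 (edgeR adjusted p = 0.128, 0.121 and 0.0981), replicate 4 of 1d-MI + 3 (0.0597), any 1 of replicates 1 to 4 of 7d-SHAM + 3 (0.106, 0.107, 0.114 and 0.0859) and replicates 1, 2 and 4 of 7d-MI + 3 (0.0641, 0.0676 and 0.0653), at log2 fold changes of 0.47 to 0.61. Its adjusted p was 0.205 with prefix 1078 alone (log2 fold change 0.43) and 0.166 with the prefix block. Aspn passed as lower with prefix 1078 alone (-0.60, edgeR adjusted p = 0.0246).

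**Figure D3:**
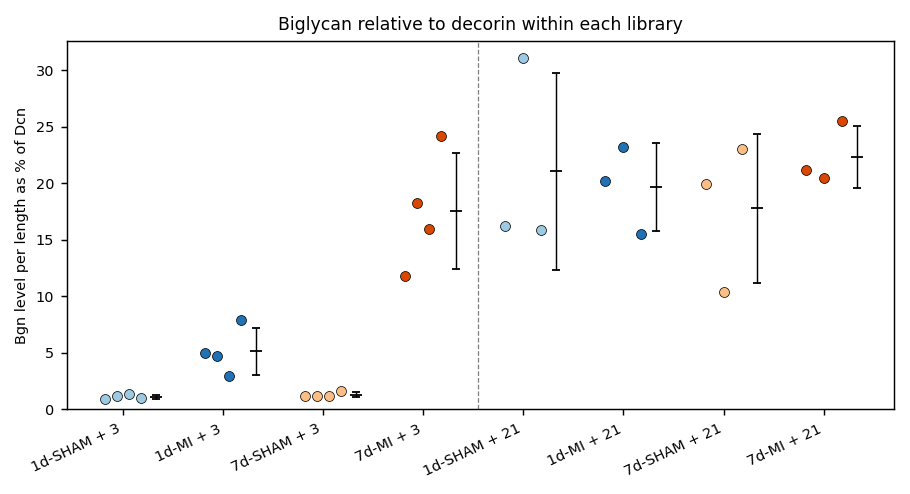
Level of Bgn per gene length as a percentage of that of Dcn in the same library, with 1 point per library and the mean ± SD of the group. The percentage lies at 0.902 to 1.64 in the 3-day shams, at 2.91 to 7.93 in 1d-MI + 3 and at 11.8 to 24.2 in 7d-MI + 3.

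The balance between the 2 closest relatives of the family shifted accordingly. Per gene length, Bgn stood at 0.902% to 1.35% of Dcn in 1d-SHAM + 3 and 1.13% to 1.64% in 7d-SHAM + 3. After MI it was 2.91% to 7.93% in 1d-MI + 3 and 11.8% to 24.2% in 7d-MI + 3, so neither MI group overlapped its shams. At 21 days the percentage was 15.8 to 31.1 in 1d-SHAM + 21, 15.5 to 23.2 in 1d-MI + 21, 10.4 to 23.0 in 7d-SHAM + 21 and 20.4 to 25.5 in 7d-MI + 21, with overlap among the groups. The length of Dcn scales every one of these percentages alike.

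**Figure D4:**
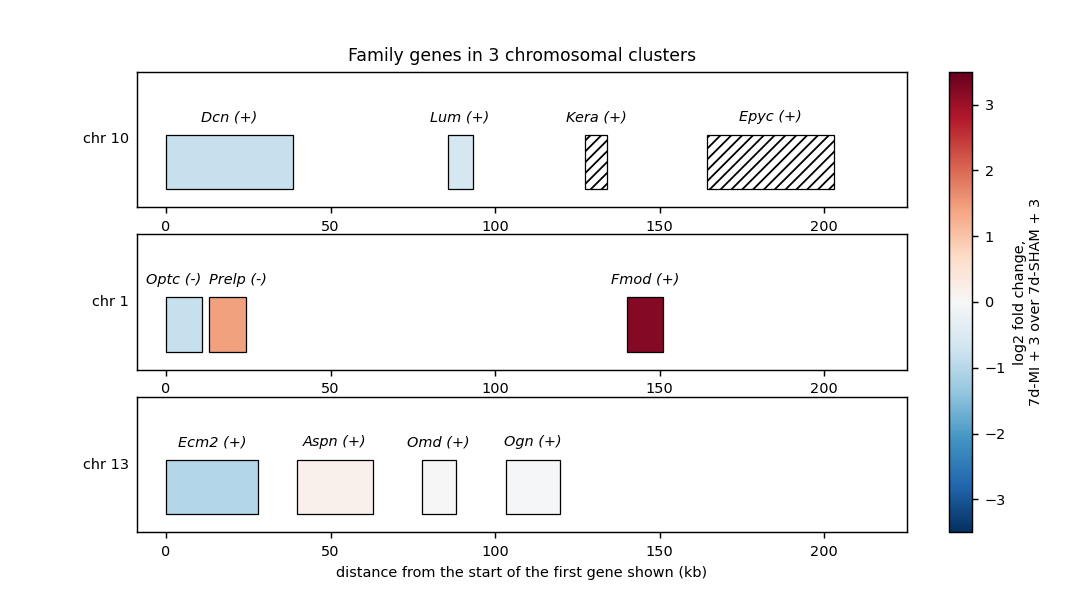
Family genes in the 3 chromosomal clusters, drawn to scale in kb from the start of the leftmost gene, with strand signs and colored by log2 fold change of 7d-MI + 3 over 7d-SHAM + 3. Hatched genes (Kera and Epyc) were not tested at 3 days. Dcn and Lum are both blue, Prelp and Fmod red beside a blue Optc that did not pass, and Aspn, Omd and Ogn near white beside a blue Ecm2.

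Members were set beside their neighbors in the genome for the 7-day MI comparison at 3 days, without a test. In the chromosome 10 cluster both members expressed in these libraries fell (Dcn -0.82, Lum -0.62). In the chromosome 1 cluster Prelp and Fmod rose (1.45 and 3.21), and Optc, 2305 bases from Prelp, stood at -0.81 ± 1.45 (edgeR adjusted p = 0.728). In the chromosome 13 cluster Aspn, Omd and Ogn, which did not pass, stood at 0.18, 0.01 and -0.04, beside Ecm2, a family gene 11654 bases upstream of Aspn, which fell by 1.03 on the log2 scale. Over the 16 libraries at 3 days the Pearson correlation of log2 CPM was 0.95 for Dcn with Lum and 0.71 for Ogn with Aspn. It was also 0.89 for Bgn with Prelp and 0.86 for Bgn with Fmod, which lie on different chromosomes, and -0.23 for Dcn with Bgn. Over the 12 libraries at 21 days Dcn with Lum gave 0.94, Dcn with Bgn 0.83 and Ogn with Omd 0.82. These libraries share groups, ages and scaling, so the correlations describe the set and carry no test.

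**Figure D5:**
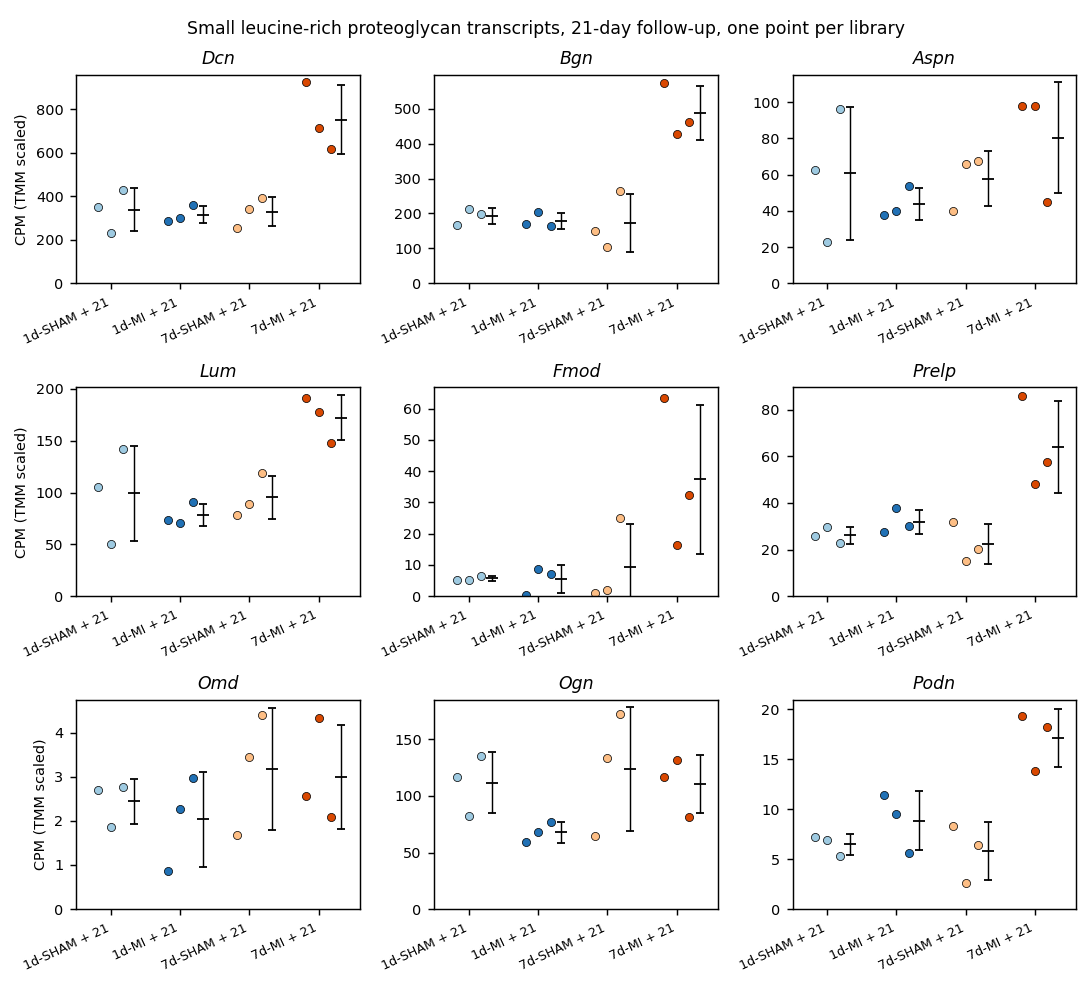
Level of each member in the 21-day libraries, in CPM on an axis of its own that starts at 0, with 1 point per library and the mean ± SD of 3 libraries beside it. The 7d-MI + 21 libraries lie above all 7d-SHAM + 21 libraries for Dcn, Bgn, Lum, Prelp and Podn, and the groups overlap for Fmod, Ogn, Omd and Aspn.

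At 21 days no member passed in any comparison by edgeR's quasi-likelihood test. For 7d-MI + 21 against 7d-SHAM + 21 the test called 0 of 24646 genes (0%), although 4111 had an unadjusted p under 0.05. Dcn, Bgn, Lum, Prelp and Podn were each higher in every 7d-MI + 21 library than in any sham, a pattern shown by 5.83% of genes tested. The same 5 had an unadjusted p under 0.05, where 6.31% of genes did in that direction. DESeq2 called Bgn, Dcn, Podn and Prelp higher, 4 members where it called 1.36% of genes higher, with adjusted p of 0.00601, 0.0235, 0.0164 and 0.00168. The median log2 fold change was 1.19 over the members and -0.13 over all genes.

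Dcn stood at 256, 341 and 390 CPM in 7d-SHAM + 21 and at 926, 715 and 617 CPM in 7d-MI + 21, a log2 fold change of 1.19 ± 0.35 (edgeR adjusted p = 0.209). The sign was opposite to that at 3 days, where other kits were used. Bgn stood at 150, 103 and 263 CPM in the shams and 574, 428 and 461 CPM after MI (1.50 ± 0.37, edgeR adjusted p = 0.161). Prelp stood at 31.7, 15.2 and 20.2 CPM in the shams and 86.0, 48.2 and 57.6 CPM after MI (1.51 ± 0.34, edgeR adjusted p = 0.134). In each of these the lowest MI library was above the highest sham. Podn stood at 8.35, 2.60 and 6.44 CPM in the shams and 19.3, 13.8 and 18.2 CPM after MI (1.56 ± 0.41, edgeR adjusted p = 0.173). Lum stood at 78.3, 89.3 and 118 CPM in the shams and 191, 178 and 148 CPM after MI (0.85 ± 0.37, edgeR adjusted p = 0.275). Both were likewise without overlap.

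The rest overlapped. Fmod was at 0.894, 1.83 and 25.1 CPM in 7d-SHAM + 21 and 63.4, 16.4 and 32.3 CPM in 7d-MI + 21, so a single sham library reached the MI range (log2 fold change 2.03 ± 1.14, edgeR adjusted p = 0.364). Aspn was at 40.1, 65.8 and 67.6 against 97.8, 98.1 and 45.0 CPM, Ogn at 64.2, 134 and 173 against 117, 132 and 81.8 CPM, and Omd at 1.67, 3.44 and 4.40 against 2.57, 4.33 and 2.09 CPM. Their log2 fold changes were 0.47, -0.16 and -0.07. Without replicate 1 of 7d-SHAM + 21, 3 members passed by edgeR's quasi-likelihood test, Podn (log2 fold change 1.99, adjusted p = 0.00537), Bgn (1.46, adjusted p = 0.0198) and Prelp (1.90, adjusted p = 0.00414). Group and animal-name prefix cannot be told apart at 21 days, since each group has a single prefix.

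For 1d-MI + 21 against 1d-SHAM + 21, edgeR called 4 genes, 0.0162% of those tested and no member, and no member had an unadjusted p under 0.05, as 3599 genes did. Member and all-gene medians were both -0.11. Dcn stood at 352, 233 and 429 CPM in the shams and 285, 300 and 359 CPM after MI, and Bgn at 167, 212 and 199 against 169, 204 and 163 CPM. Both overlapped, with log2 fold changes of -0.10 and -0.11. Lum was at 105, 50.7 and 142 against 73.4, 70.5 and 90.6 CPM, Prelp at 25.6, 29.9 and 22.7 against 27.6, 37.7 and 30.1 CPM, and Podn at 7.20, 6.93 and 5.28 against 11.4, 9.53 and 5.62 CPM. These overlapped too. Ogn stood at 116, 82.4 and 136 CPM in the shams and 58.9, 67.8 and 77.0 CPM after MI, a log2 fold change of -0.72 ± 0.37 that did not pass (edgeR adjusted p = 0.378). Fmod ranged from 5.10 to 6.55 and from 0.340 to 8.77 CPM, Aspn from 23.1 to 96.4 and from 37.8 to 53.7 CPM, and Omd from 1.85 to 2.77 and from 0.862 to 2.97 CPM.

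Between the infarcted groups at 21 days, edgeR called 8 genes, 0.0325% of those tested and no member, while 1606 genes had an unadjusted p under 0.05. All members but Aspn and Omd were higher in every 7d-MI + 21 library than in any 1d-MI + 21 library, 7 members where 8.9% of genes were. An unadjusted p under 0.05 was found for 6 members, where 4.66% of genes had one in that direction, and DESeq2 called Bgn and Dcn higher (adjusted p = 0.00525 and 0.00996), 2 members where it called 0.641% of genes. Log2 fold changes were 2.78 ± 1.17 for Fmod, 1.45 ± 0.37 for Bgn, 1.26 ± 0.35 for Dcn, 1.14 ± 0.37 for Lum, 1.01 ± 0.34 for Prelp and 0.95 ± 0.40 for Podn, with a median of 1.01 over the members and -0.02 over all genes. The 7d-MI + 21 libraries are the same as in the comparison against 7d-SHAM + 21.

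For the shams at 21 days, edgeR called 0 genes (0%). An unadjusted p under 0.05 was found for 442 genes, none of them a member, and DESeq2 called no member. Member log2 fold changes of 7d-SHAM + 21 over 1d-SHAM + 21 ran from -0.22 for Prelp to 0.69 for Fmod, with a median of -0.06 beside 0.14 over all genes. When the MI effects of both ages were set against each other at 21 days, edgeR again called 0 genes (0%), and 927 had an unadjusted p under 0.05. Among those were Bgn (a difference of 1.61), Dcn (1.30), Prelp (1.23) and Lum (1.20), 4 members where 2.15% of genes had such a p in that direction. All members had an adjusted p of 1, and the median was 1.20 beside -0.15 over all genes. DESeq2 was run on this difference as well and called no member.

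Enzymes that build the glycosaminoglycan chains were counted next. For this and the following lists, 19.8% of all genes tested were higher and 14.2% lower in 7d-MI + 3 against 7d-SHAM + 3. In 1d-MI + 3 against 1d-SHAM + 3 the shares were 4.1% and 4.36%. Higher genes made up 19.4% between the MI groups, 8.12% between the shams and 9.01% for the difference. The lists were chosen with earlier results of these data known, so their counts are descriptions. Of 22 genes for chondroitin and dermatan sulfate synthesis 21 were tested, and in 7d-MI + 3 against 7d-SHAM + 3 10 rose and 0 fell, with a median log2 fold change of 0.52. The 3 of smallest p were Chst11, a chondroitin sulfotransferase (log2 fold change 2.68 ± 0.26, edgeR adjusted p = 3.78e-07, mean 21.4 against 3.33 CPM), Dse, the epimerase that turns chondroitin into dermatan sulfate (1.60 ± 0.19, 3.22e-06, 32.4 against 10.7 CPM), and Chst12 (1.74 ± 0.33, 0.000326, 4.55 against 1.35 CPM). In 1d-MI + 3 against 1d-SHAM + 3, 2 rose and 2 fell (median 0.05). Csgalnact1, which starts chondroitin chains, fell by 1.05 on the log2 scale (edgeR adjusted p = 0.00382), as did the linkage kinase Fam20b (-0.46, 0.016), and Chst11 rose (0.87, 0.0399). The difference between ages passed for 3 genes (median 0.69), Chst11 at 1.81 (edgeR adjusted p = 0.00284), the chain polymerase Chsy1 at 0.94 (0.00336) and Dse at 1.18 (0.00725).

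Of 7 keratan sulfate genes 3 rose and 0 fell in 7d-MI + 3 against its shams (median 0.37). They were the chain-extending B3gnt7 (4.07 ± 0.69, edgeR adjusted p = 0.000125, 1.29 against 0.0758 CPM), B3gnt2 (0.50, 0.00841) and B4galt1 (0.37, 0.0131), and none passed in the mice operated at 1 day (median 0.06) or for the difference (median 0.31). In 7d-MI + 3 against 1d-MI + 3, 9 chondroitin and dermatan sulfate genes were higher and 0 lower (median 0.65), the smallest p being those of Chpf, Dse and Chst11 (log2 fold changes 1.83, 1.36 and 1.70). Of the keratan sulfate genes 2 were higher, B4galt1 (0.66) and B3gnt2 (0.76), and 1 was lower (median 0.23). The lower one, Chst5, had 0 reads in all 7d-MI + 3 libraries and up to 0.648 CPM in 1d-MI + 3, where 27324 to 35932 genes had a read against 19446 to 22316 in the 7-day groups. Between the shams Chpf was higher (1.00) and no other chondroitin and dermatan sulfate gene passed (median 0.06), and B4galt1 was higher (0.34) and B3gnt7 lower (-2.03) among the keratan sulfate genes (median -0.39).

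Collagens that SLRPs bind were counted in the same way. Of 12, 10 rose and 0 fell in 7d-MI + 3 against 7d-SHAM + 3 (median 1.45), led by Col1a1, the main fibrillar collagen chain (3.23 ± 0.21, edgeR adjusted p = 6.14e-09, 687 against 73.0 CPM). Col12a1, a fibril-associated collagen, went from 3.09 to 189 CPM (5.93 ± 0.42, edgeR adjusted p = 1.14e-07), and Col5a2 from 105 to 458 CPM (2.12 ± 0.22, 6.87e-07). In 1d-MI + 3 against 1d-SHAM + 3, 6 rose and 0 fell (median 0.60), with Col1a1 at 1.26 ± 0.20 (edgeR adjusted p = 0.00175, 89.1 against 37.2 CPM), Col11a1 at 2.95 ± 0.42 (0.00237) and Col12a1 at 2.30 ± 0.36 (0.00277). The difference between ages passed for 8 collagens (median 1.14), led by Col1a1 at 1.97 (edgeR adjusted p = 0.000327), Col12a1 at 3.62 (0.000637) and Col5a1 at 1.25 (0.0048). Between the MI groups 12 of 12 were higher at 7 days (median 1.74), where 19.4% of all genes tested were higher. Col6a3, Col1a1 and Col5a1 led (2.52, 2.95 and 2.28). Between the shams 9 were higher and 1 lower (median 0.85), led by Col6a3, Col5a1 and Col3a1 (1.57, 1.04 and 0.85). In the 7-day comparison Dcn and Lum thus fell in the same libraries in which 10 of these 12 collagens rose.

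Of 16 receptors and growth factors that bind family members, 12 rose and 1 fell in the 7-day MI comparison (median 1.42) and 4 rose and 1 fell in the 1-day one (median 0.52). Between the MI groups 14 were higher at 7 days (median 1.27), between the shams 4 were (median 0.39), and 9 passed for the difference (median 0.97). Lrp1, the endocytic receptor that clears decorin, stood at 297 against 55.0 CPM in 7d-MI + 3 and 7d-SHAM + 3 (2.43 ± 0.21, edgeR adjusted p = 7.52e-08) and at 40.9 against 17.9 CPM in 1d-MI + 3 and 1d-SHAM + 3 (1.19, 0.00248). Tgfb2 rose as well (2.41 ± 0.22, edgeR adjusted p = 1.67e-07), as did P2rx7, a purinergic receptor through which biglycan signals (2.02 ± 0.21, 6.2e-07). In the 1-day comparison both rose too, P2rx7 at 0.90 and Tgfb2 at 0.72 (edgeR adjusted p = 0.0136 and 0.0389), and for the difference Egfr (1.16), Tgfb2 (1.69) and the hyaluronan receptor Cd44 (1.88) had the smallest p. Egfr, Lrp1 and P2rx7 led between the MI groups (2.01, 2.86 and 1.48), and Lrp1, Egfr and Tlr4 between the shams (1.62, 0.85 and 0.58).

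Of 11 proteases that cleave family members, 7 rose and 0 fell at 7 days (median 1.42), 2 rose and 0 fell at 1 day (median 0.47), 7 rose between the MI groups (median 0.96), 3 between the shams (median 0.34) and 2 passed for the difference (median 0.59). Mmp14, a membrane-anchored metalloproteinase, rose at 7 days (1.42 ± 0.17, edgeR adjusted p = 2.64e-06) and at 1 day (0.69, 0.0176), and Adamts4 (2.04 ± 0.26, 5.39e-06) and Mmp9 (4.09 ± 0.59, 2.31e-05) rose at 7 days. Mmp9 also rose at 1 day (2.06, edgeR adjusted p = 0.0241), and Adamts4 and Mmp14 were the genes that passed for the difference (1.36 and 0.73). Mmp14, Htra1 and Bmp1 led between the MI groups (1.12, 1.04 and 0.81) and Htra1, Mmp2 and Adamts1 between the shams (1.00, 1.30 and 0.63).

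At 21 days no gene of these lists passed the test in any comparison. Medians for 7d-MI + 21 against 7d-SHAM + 21 were 1.70 for the collagens, 0.68 for the proteases, 0.65 for the receptors and growth factors, 0.62 for chondroitin and dermatan sulfate synthesis and 0.14 for keratan sulfate synthesis, beside -0.13 over all genes.

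Of the other 9 family genes, 7 were tested at 3 days and most were near the detection limit. Ecm2, the matrix gene next to Aspn, was the well-expressed exception and moved with Dcn in the MI comparisons. Of the 7, 1 rose and 1 fell in the 7-day MI comparison (median -0.16), 1 fell in the 1-day one (median 1.55), 2 were higher and 2 lower between the MI groups (median -2.27), 1 was higher between the shams (median -0.77) and none passed for the difference (median -0.42). Ecm2 stood at 30.0 against 61.0 CPM in 7d-MI + 3 and 7d-SHAM + 3 (-1.03 ± 0.17, edgeR adjusted p = 0.000109) and at 15.4 against 32.4 CPM in 1d-MI + 3 and 1d-SHAM + 3 (-1.07 ± 0.17, 0.00222). It was also higher in 7d-MI + 3 than in 1d-MI + 3 (0.95, edgeR adjusted p = 0.000284) and in 7d-SHAM + 3 than in 1d-SHAM + 3 (0.91, 0.00104). Tsku, tsukushi, rose from 1.19 to 2.72 CPM in the 7-day MI comparison (1.19 ± 0.44, edgeR adjusted p = 0.0445) and was higher in 7d-MI + 3 than in 1d-MI + 3 (1.34, 0.0195). Between those MI groups Chadl, which shares 1023 exonic bases with L3mbtl2, and the opticin gene Optc were lower (0.872 against 2.00 CPM and 0.0248 against 0.348 CPM, edgeR adjusted p = 0.0243 and 0.0370). Optc had only 0 to 4 reads per library in 7d-MI + 3 and 2 to 30 in 1d-MI + 3. More genes had a read in the 1d-MI + 3 libraries, as given for Chst5, and the part of this was not tested. Group means of Chad, Nyx, Optc, Podnl1, Kera and Epyc did not pass 0.783 CPM at 3 days. None of the 9 passed at 21 days, where Ecm2 stood at 33.6 against 15.6 CPM in 7d-MI + 21 and 7d-SHAM + 21 (1.11, edgeR adjusted p = 0.198).

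Marker genes of the cells that make SLRPs, and of other cells the wall could hold, moved in the same libraries, and their part in the results above was not tested. The shares of all genes called at 3 days, given with the enzyme lists, apply to the marker counts too. Summed levels of 7 resident fibroblast markers were 295 to 353 and 183 to 289 CPM in 1d-SHAM + 3 and 1d-MI + 3, and 588 to 699 and 511 to 712 CPM in 7d-SHAM + 3 and 7d-MI + 3, and other sums follow in this order. In the 7-day MI comparison 4 of the 7 rose and 1 fell, and in the 1-day one 0 rose and 1 fell. For 7 activated fibroblast markers the sums were 928 to 1465, 775 to 1704, 937 to 1184 and 2454 to 3133 CPM, with 6 rising and 0 falling at 7 days and 3 rising and 1 falling at 1 day. Macrophage markers, 6 in number, summed to 20.7 to 39.8, 50.7 to 139, 61.8 to 74.7 and 174 to 336 CPM, and 6 rose at 7 days and 2 at 1 day. So among the 3-day groups, 7d-MI + 3 had the highest Bgn and also the highest sums of activated fibroblast and macrophage markers.

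Of 8 markers of valve, tendon and cartilage-like cells, which express Fmod and Prelp, 7 were tested. They summed to 15.6 to 22.04, 22.1 to 29.2, 15.8 to 21.2 and 50.8 to 67.9 CPM, with Tnmd at 0 in 7d-SHAM + 3. At 7 days 3 rose and 1 fell, and at 1 day none passed. The 7 ventricular cardiomyocyte markers, with 4 falling and 0 rising at 7 days and 1 falling at 1 day, had a single library apart in 7d-MI + 3, replicate 3 at 61599 CPM, where the other 3 reached at most 29601 CPM. The same library had the highest Lum and Dcn of its group, and without it Lum and Dcn stood at log2 fold changes of -0.76 and -0.89 against the shams. The 5 atrial cardiomyocyte markers, which include the natriuretic peptide gene Nppa that stressed ventricle can express, summed to 36.0 to 314, 2249 to 4172, 99.2 to 157 and 729 to 2231 CPM, and of 4 tested 1 rose at 7 days and 2 at 1 day.

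Endothelial markers (5) summed to 219 to 258, 149 to 247, 345 to 402 and 257 to 377 CPM, with 1 rising and 3 falling at 7 days and 0 rising and 2 falling at 1 day. Smooth muscle and pericyte markers (6) summed to 633 to 761, 348 to 623, 1227 to 1416 and 617 to 986 CPM, with 3 rising and 2 falling at 7 days and 1 rising and 1 falling at 1 day. Mesothelial and epicardial markers (6 of 7 matched) summed to 7.22 to 18.4, 14.9 to 19.4, 10.1 to 20.3 and 8.87 to 28.1 CPM, with none passing at 7 days and 1 rising at 1 day. White adipocyte markers (5) did not exceed 3.73 CPM in any 3-day library, and of 3 tested none passed in either MI comparison. Between the MI groups 6 of 7 resident fibroblast, 7 of 7 activated fibroblast and 6 of 6 macrophage markers were higher in 7d-MI + 3, and between the shams 3, 2 and 5 were higher in 7d-SHAM + 3.

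At 21 days no marker passed the test. Resident fibroblast sums were 243 to 385 and 315 to 383 CPM in 1d-SHAM + 21 and 1d-MI + 21 and 266 to 289 and 481 to 617 CPM in 7d-SHAM + 21 and 7d-MI + 21, so the infarcted mice of 7 days stood apart in the same direction as Dcn, Bgn, Lum, Prelp and Podn. Activated fibroblast sums were 149 to 205, 346 to 495, 128 to 270 and 352 to 622 CPM, without overlap between MI and sham at either age. The median log2 fold change of these markers was -0.35 in 1d-MI + 21 against 1d-SHAM + 21 and 1.96 in 7d-MI + 21 against 7d-SHAM + 21. The higher sum in 1d-MI + 21 was thus not shared by most markers of the list. Valve, tendon and cartilage-like sums were 23.4 to 34.3, 18.8 to 39.6, 15.4 to 59.3 and 79.3 to 287 CPM, and white adipocyte sums were 1.54 to 7.47, 0 to 2.01, 0.298 to 8.39 and 11.4 to 18.3 CPM. Atrial cardiomyocyte sums were 168 to 1000, 397 to 1359, 88.4 to 970 and 2143 to 4518 CPM, and mesothelial sums 6.33 to 13.6, 6.72 to 11.6, 6.56 to 10.2 and 16.6 to 29.8 CPM. In each of these 4 lists the 7d-MI + 21 libraries lay above those of the other groups. Their median log2 fold changes for 7d-MI + 21 against 7d-SHAM + 21 were 1.53 (valve), 2.11 (adipocyte), 5.46 (atrial, 4 tested) and 1.84 (mesothelial). Nppa was thus not the only atrial marker estimated higher. Whether the tissue taken differed between samples was not tested. Macrophage sums were 180 to 258, 224 to 291, 148 to 208 and 268 to 310 CPM, endothelial sums 115 to 168, 137 to 258, 94.3 to 221 and 182 to 292 CPM, and smooth muscle and pericyte sums 226 to 384, 283 to 403, 267 to 361 and 365 to 436 CPM.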

How the data were processed

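RNA of 28 remote-zone samples (16 at 3 days, 12 at 21 days) was used as gene-level values. For each library the authors deposited read counts per gene, CPM scaled by the total count of the file, RPKM scaled further by gene length, and log2 of CPM and RPKM. Only the counts, and the gene lengths behind RPKM, entered the results. The notes of the submitters name TopHat2 2.0.11, Bowtie2 2.2.2, Cufflinks 2.2.1 and GRCm38. How reads were counted, and on which strand, is not given in the sources used here. The 2 libraries deposited as 2 lanes were summed.

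Within each follow-up, genes passed filterByExpr (at least 10 counts, 15 in total), were scaled by TMM and were tested by the quasi-likelihood method of edgeR 4.0.16 in R 4.3.3 with a mean per group, and p-values were Benjamini-Hochberg adjusted over all genes. SE is the size of the log2 fold change divided by √F, and CPM in the text is TMM-scaled. Prior count was 2. limma 3.58.1, DESeq2 1.42.0, matplotlib 3.10.9, pandas 2.3.3 and numpy 2.4.6 under Python 3.11.15 were also used, and the script was tested on simulated data.

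Named genes are the members, other detected family genes, and the 3 of smallest p among called genes of each list. The 6 companion lists are other family genes, both sulfate synthesis lists, collagens, receptors and growth factors, and proteases, and 10 marker lists were summed. Members and lists were chosen with earlier results of these data known. Alternatives were no filter, a mean count of at least 50, scaling by RLE, by upper quartile or after dropping the 20 most abundant genes, DESeq2, limma-voom, a prefix block, a replicate block, fewer groups, 1 lane, annotation lengths, and each library left out. Replicate numbers at 21 days were checked for pairing: over 15 same-numbered pairs the correlation of deviations ran from -0.47 to 0.45, so the numbers were not taken to pair samples.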

Additional observations from a re-analysis of the deposited data

Results flagged for a closer look

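Each member in each 3-day group made a set of 4 libraries, 36 sets in all. In 7 sets a library was apart from the other 3 by Dixon's 95% criterion, which by chance flags about 1 in 20 independent sets. The sets share libraries and scaling, so the number flagged cannot be read against that rate. In 7d-SHAM + 3, replicate 4 was lowest for Dcn at 1008 CPM and for Aspn at 252 CPM, and highest for Bgn at 48.3 CPM. In 7d-MI + 3, replicate 1 was lowest for Bgn at 233 CPM and replicate 3 highest for Lum at 87.1 CPM. In 1d-MI + 3, replicate 3 was lowest for Fmod at 0.179 CPM, and in 1d-SHAM + 3, replicate 2 was highest for Podn at 0.592 CPM. Replicate 4 of 7d-SHAM + 3 was thus apart for 3 members, and without it Dcn, Bgn, Fmod, Podn, Prelp and Lum all passed in 7d-MI + 3 against 7d-SHAM + 3.

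The MI effect at 3 days differed between mice operated at 7 days and at 1 day for Bgn, by a log2 fold change of 1.41, and for Prelp, by 1.04, both higher after the operation at 7 days in the interaction test of edgeR. The call for Bgn held in all alternatives. Prelp missed the threshold in several of them, most widely in limma-voom with the prefix block (adjusted p = 0.236).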

How the results depend on the processing

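No member's direction reversed past the threshold in any of the alternatives. With each library left out in turn, the number of members passing ran from 5 to 6 in 7d-MI + 3 against 7d-SHAM + 3 (6 with all libraries), 1 to 5 in 1d-MI + 3 against 1d-SHAM + 3 (2), 5 to 6 in 7d-MI + 3 against 1d-MI + 3 (6), 3 to 5 in the 3-day shams (5), 1 to 2 for the difference of effects at 3 days (2) and 0 to 3 in 7d-MI + 21 against 7d-SHAM + 21 (0), and was 0 in the other 21-day comparisons. Other settings that moved a count by more than 1.5 times were, for 1d-MI + 3 against 1d-SHAM + 3, no filter (5), limma-voom with the prefix as a random block (1), only the groups compared (1) and shams of prefix 1078 alone (1). For 7d-MI + 3 against 1d-MI + 3 it was upper-quartile scaling (3), for the 3-day shams the prefix block (2), and for the difference upper-quartile scaling, limma-voom, the prefix block and prefix 1103 alone (1 each). For 7d-MI + 21 against 7d-SHAM + 21 no filter gave 3 and DESeq2 4, and for 7d-MI + 21 against 1d-MI + 21 DESeq2 gave 2. Smaller moves were to 4 with the prefix block and 5 with a mean count of at least 50, which drops Podn, in 7d-MI + 3 against 7d-SHAM + 3, to 3 with DESeq2 and limma-voom in 1d-MI + 3 against 1d-SHAM + 3, to 5 with a mean count of at least 50 and with only the groups compared in 7d-MI + 3 against 1d-MI + 3, to 4 with prefix 1103 alone in the 3-day shams, and to 3 with prefix 1078 alone for the difference. The causes were not tested. Fits with a single prefix of 1d-SHAM + 3 were chosen after seeing the data.

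Upper-quartile scaling moved the all-gene median by 0.15 in 1d-MI + 3 against 1d-SHAM + 3, by -0.24 in 7d-MI + 3 against 1d-MI + 3 and in the difference, and by -0.34 and -0.32 in the 7-day and 1-day MI comparisons at 21 days. With RLE factors the 1-day one moved by -0.11, and without the 20 most abundant genes the 21-day shams moved by -0.10 and the difference by 0.13. The replicate block at 21 days left 0 members passing in all 5 comparisons. It moved the calls over all genes in 7d-MI + 21 against 7d-SHAM + 21 from 0 to 46. Of the same-numbered pairs, 8 of 15 correlated above 0.1, and for 3 of 12 libraries the closest library had the same number.

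Precision is limited at 21 days by 3 mice per group, and for Fmod and Podn in the 3-day shams by counts of 2 to 28.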

Other observations

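Genes whose pattern over libraries was closest to the mean of the standardized member levels were listed within each follow-up, among genes with a mean of at least 5 CPM. Over the 16 libraries at 3 days they were Mia3, which serves collagen export from the endoplasmic reticulum (Pearson r = 0.96), Aff4 (0.95), Srrm2, Hcfc1 and Usp9x (0.94 each). Over the 12 libraries at 21 days they were Fibin (0.98), Postn, a matricellular protein of activated fibroblasts (0.97), Mgp (0.96), Thbs4, also in the valve, tendon and cartilage-like list (0.96), and Ecm2 (0.95). When values were centered on the group means, 1 of 5 genes was shared with the uncentered list at each follow-up, Aff4 at 3 days (0.89) and Fibin at 21 days (0.97). Nppa, of the atrial list, ranked 2 in the centered list at 21 days (0.96). The libraries share groups, scaling and depth, so these are descriptions without a test.

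The correlation of a member with the mean of the others ran from 0.02 for Podn to 0.77 for Prelp over the 3-day libraries, and from 0.43 for Podn to 0.95 for Dcn over the 21-day libraries. For Ogn, Omd and Prelp it was 0.52, 0.73 and 0.77 at 3 days and 0.46, 0.46 and 0.54 at 21 days. Epyc, the dermatan sulfate family member at the end of the chromosome 10 cluster, was at 6.10, 5.37 and 3.66 CPM in 7d-MI + 21 and at 0, 0.806 and 6.35 CPM in 7d-SHAM + 21, so the groups overlapped.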
